A study of Mus musculus with 9 samples.

Results

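Retinoic acid is a small lipid signal made from vitamin A. Cells take up retinol, oxidise it first to retinaldehyde and then to retinoic acid, and the acid binds nuclear receptors that sit on DNA and switch genes on. Binding proteins carry it inside the cell, and cytochrome P450 enzymes of the CYP26 family break it down. Around the embryonic mouse cortex, the meninges are known as a source through Aldh1a2 and the lateral ganglionic eminence, the ventral forebrain region that forms the striatum, as a source through Aldh1a3.

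Described here are 9 genes of this route: Stra6, Rdh10, Aldh1a1, Aldh1a2, Aldh1a3, Crabp1, Crabp2, Cyp26b1 and Rarb. They were chosen by name, with their changes in both comparisons already known, out of 39184 genes listed in both tables. All 9 were found and had an adjusted p in both comparisons. Their fold changes are therefore a description, and the p-values beside them are given for reference and support nothing about the choice.

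RNA was sequenced from embryonic mouse cortex at E16.5 in 3 genotypes of HAR1984, a human accelerated region, meaning a stretch that vertebrates share with little change but that gained many differences in humans. Both alleles were of mouse sequence in controls, Mm-HAR1984 (Mm/Mm). Knock-in embryos, Mm-HAR1984 (Hs/Mm), carried 1 human allele made by CRISPR, and deletion embryos, Mm-HAR1984 (del/del), lacked the element on both alleles, also by CRISPR. Each genotype had 3 libraries that the design text calls biological replicates, and the tissue label of deletion replicate 3 reads E16.6. The labels give all 9 libraries the same batch and name neither strain, sex nor how many founder lines were used.

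The cell type label reads neural progenitors, while the tissue label reads cortex. Genes of postmitotic cortical neurons and of progenitors were both abundant. In control, the mean normalised count, not corrected for length, was 18347 for Neurod2 and 33248 for Neurod6. Progenitor markers ran from 535 for Hes5 to 29205 for Vim, with 3488 for Pax6 and 5201 for Sox2, all over 3 libraries. The deposited mean normalised counts of all genes summed to 44.27 (in units of 1e+06), the depth of an average library after scaling, while depths of single libraries are unknown. Per-library values were not used, because the columns that bear library names hold no measurement of a library (see the processing). The Y-linked gene Eif2s3y, chosen after its values were seen, differed from control by -27.20 (log2, SE 3.91) in knock-in embryos and by -1.26 (SE 3.73) in deletion embryos. The level of this gene thus went with genotype in the knock-in comparison, and the part of embryo sex in the values of the 9 genes was not tested.

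Every change below is the log2 of a genotype's mean over the control mean, taken as the authors' Wald statistic times its standard error (SE), with 3 libraries per group. A gene was called when its adjusted p was under 0.05. A level is the mean normalised count of a genotype, worked out from the deposited mean over 9 libraries and both fold changes, with the SE that the fit implies. In bulk tissue, fewer cells of a type and less RNA per cell cannot be told apart.

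In deletion embryos the 2 sources differed in direction: Aldh1a3 was 6.52-fold lower than in control and Aldh1a2 was 2.19-fold higher. Knock-in embryos had 3.13-fold less Aldh1a3, and for Aldh1a2 a value 1.31 times control that did not pass. Of the 9 genes, 2 were called in the deletion, 1 in each direction, where 0.976% of all 18952 genes tested were called, 0.501% higher and 0.475% lower. In the knock-in 1 was called, lower, where 0.137% of 21222 genes were called, 0.0895% higher and 0.0471% lower. Since these same contrasts chose the genes, nothing is read from these counts. Median log2 fold changes of the 9 were 0.32 (deletion) and 0.04 (knock-in), beside -0.0062 and 0.0039 over all genes tested. At an unadjusted p under 0.05 there were 5 of the 9 in the deletion, 3 higher and 2 lower, and 1 in the knock-in, where 9.5% and 6.92% of all genes were.

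**Figure D1:**
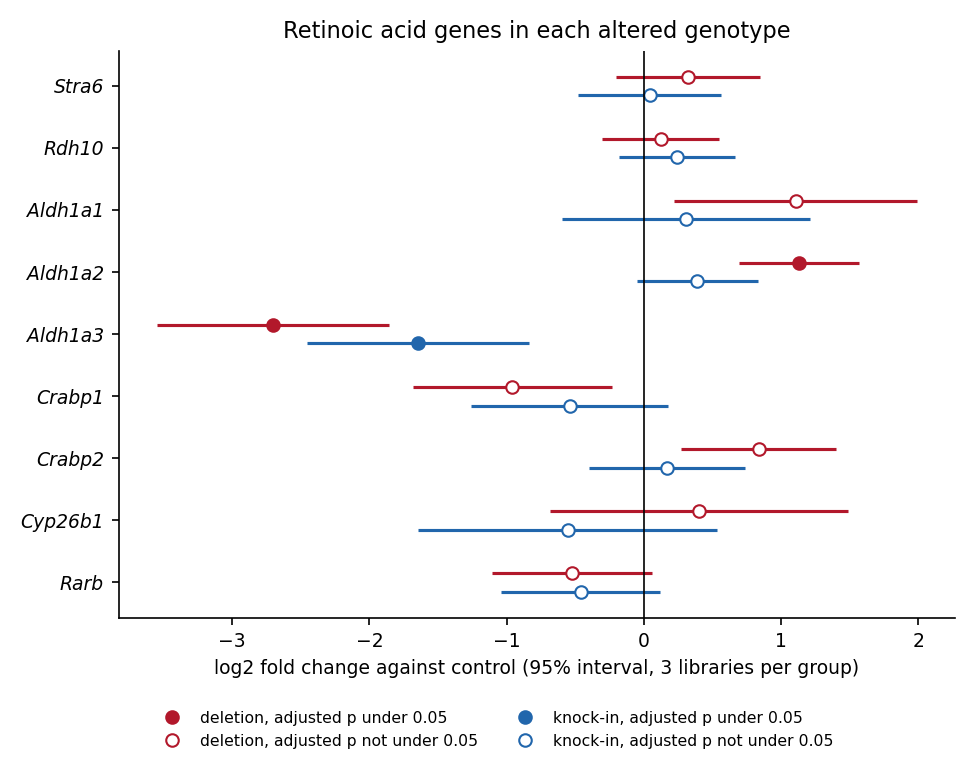
Log2 fold change against control (horizontal axis) of the 9 retinoic acid genes, in the deletion (red) and the knock-in (blue), each with 3 libraries per group. Lines are 95% intervals and filled points have an adjusted p under 0.05; the filled points are Aldh1a3 in both genotypes (-2.70 and -1.65) and Aldh1a2 in the deletion (1.13).

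Stra6, the membrane receptor that brings retinol into cells from its carrier in blood, showed similar levels in the 3 genotypes. Its mean normalised count was 830 (SE 108) in control, 1038 (SE 135) in the deletion and 855 (SE 112) in the knock-in. The log2 fold changes of 0.32 (SE 0.27, adjusted p = 0.803) and 0.04 (SE 0.27, adjusted p = 0.989) did not pass. Their 95% intervals ran from -0.20 to 0.84 and from -0.48 to 0.57, and a change of 0.93 in the deletion or 1.06 in the knock-in would have been needed for a call. The gene lies on the plus strand of chromosome 9 of mm10, at chr9:58063788-58153996.

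Rdh10, the dehydrogenase that turns retinol into retinaldehyde in the embryo, was among the more precisely measured of the 9. Its levels were 977 (SE 104) in control, 1064 (SE 113) in the deletion and 1155 (SE 122) in the knock-in. The log2 fold changes were 0.12 (SE 0.22, adjusted p = 0.955) and 0.24 (SE 0.22, adjusted p = 0.847), neither of which passed. The 95% intervals of -0.30 to 0.55 and -0.18 to 0.67 leave out changes as large as that of Aldh1a2 in the deletion. Rdh10 lies at chr1:16105774-16133734, on the plus strand.

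Aldh1a3, the retinaldehyde dehydrogenase of the lateral ganglionic eminence, lies on the minus strand at chr7:66390890-66427517. Its level was 154 (SE 30.3) in control, 23.6 (SE 5.32) in the deletion and 49.2 (SE 10.2) in the knock-in. Both altered genotypes were below control by more than the SEs, and the deletion was the lower of them. In the deletion the log2 fold change was -2.70 (SE 0.43, 95% interval -3.55 to -1.86, adjusted p = 9.79e-07), which left 15.3% of the control level and ranked sixth by p among all genes tested. In the knock-in it was -1.65 (SE 0.41, 95% interval -2.46 to -0.84, adjusted p = 0.0487), leaving 31.9% of the control level.

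The knock-in call of Aldh1a3 was the last of the 29 genes that passed, and it was lost when the adjustment ran over every gene with a statistic (adjusted p = 0.0896). In the authors' deposited table its knock-in p is 6.66e-08 and its adjusted p 4.42e-05. That deposited p is 1000-fold smaller than the p of 6.66e-05 that the statistic in the same row gives, so the borderline value is used here. The deletion minus knock-in difference was -1.06 on the log2 scale (SE 0.44, 95% interval -1.92 to -0.19), a description from the one fit over 9 libraries.

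Aldh1a2, the retinaldehyde dehydrogenase of the meninges, lies on the plus strand at chr9:71215789-71296243. Its level was 713 (SE 78.7) in control, 1565 (SE 171) in the deletion and 935 (SE 103) in the knock-in. The deletion stood above both other genotypes by several SEs. Its log2 fold change was 1.13 in the deletion (SE 0.22, 95% interval 0.69 to 1.57, adjusted p = 2.71e-04) and 0.39 in the knock-in (SE 0.22, 95% interval -0.05 to 0.83, adjusted p = 0.773). At this SE a knock-in change under 0.90 could not have passed. The deletion minus knock-in difference was 0.74 (SE 0.22, 95% interval 0.31 to 1.18).

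The log2 fold change of Aldh1a3 minus that of Aldh1a2 was -3.84 (SE 0.49) for the deletion and -2.04 (SE 0.47) for the knock-in. These SEs leave out the covariance of the genes, which come from the same libraries. Per kb of merged exon, a scale on which genes can be compared, the level of Aldh1a2 was 9.44 times that of Aldh1a3 in control, 135 times in the deletion and 38.8 times in the knock-in. With the longest transcript as length these ratios were 7.04, 101 and 28.9. On either length the ratio was 14.3-fold higher in the deletion and 4.11-fold higher in the knock-in than in control.

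Aldh1a1, the third enzyme of this step, had the lowest level per kb in control and knock-in. Its mean normalised count was 24.7 (SE 5.66) in control, 53.3 (SE 11.3) in the deletion and 30.6 (SE 6.84) in the knock-in. The log2 fold changes of 1.11 (SE 0.45, 95% interval 0.22 to 1.99, adjusted p = 0.314) and 0.31 (SE 0.46, 95% interval -0.60 to 1.21, adjusted p = 0.934) did not pass. In the deletion a change of 1.57 would have been needed, larger than the 1.11 seen. Aldh1a1 lies on the plus strand at chr19:20492715-20643465.

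Reads of Aldh1a1 may be shared with Aldh1a7, its close paralog on chromosome 19, so the values of both are uncertain. Over the coding sequence these genes matched at 91.6% of 1506 aligned bases, while Aldh1a1, Aldh1a2 and Aldh1a3 matched each other at 67.4% to 68.9%. Of 1457 stretches of 50 bases in the Aldh1a1 coding sequence, 151 (10.4%) occur unchanged in Aldh1a7, and 0 occur in Aldh1a2 or Aldh1a3. The first 90 coding bases of the pair are shown to make this likeness visible, from the GENCODE transcripts of mm10, with the 5 bases that differ in capitals.
Aldh1a1: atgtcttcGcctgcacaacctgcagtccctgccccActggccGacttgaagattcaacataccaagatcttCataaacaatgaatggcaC
Aldh1a7: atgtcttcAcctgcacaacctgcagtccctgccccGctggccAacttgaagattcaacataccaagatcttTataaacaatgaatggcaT
Aldh1a7 itself had a log2 fold change of 1.36 (SE 0.49, adjusted p = 0.197) in the deletion and -0.04 (SE 0.51, adjusted p = 0.995) in the knock-in. Its mean normalised counts, not corrected for length, were 22.9 in control, 58.8 for the deletion and 22.3 for the knock-in. Per kb of merged exon they were 11.1, 28.5 and 10.8, against 5.01, 10.8 and 6.21 for Aldh1a1.

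Summed per kb over the 3 retinaldehyde dehydrogenases, transcript levels came to 353 in control, 707 for the deletion and 430 for the knock-in. Aldh1a2 made up 89.1% of that sum in control, 97.7% for the deletion and 96.1% for the knock-in. Aldh1a3 made up 9.44%, 0.724% and 2.48% of it, in the same order. With the longest transcript as length, its shares were 12.1%, 0.953% and 3.24%. The share of Aldh1a3 was therefore small even in control, and the sum followed Aldh1a2.

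Crabp1 and Crabp2 bind retinoic acid in the cytoplasm. CRABP2 is known to pass it to nuclear receptors, and CRABP1 to hold it or bring it to breakdown. Crabp1 had levels of 176 (SE 31.4) in control, 90.5 (SE 17) in the deletion and 121 (SE 21.9) in the knock-in. Its log2 fold changes were -0.96 (SE 0.37, 95% interval -1.68 to -0.23, adjusted p = 0.262) and -0.54 (SE 0.37, 95% interval -1.26 to 0.18, adjusted p = 0.807). Neither passed, and a change of at least 1.29 in the deletion would have been needed. Crabp1 lies at chr9:54764748-54773110, on the plus strand.

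Crabp2 had values on the other side of control. Its levels were 187 (SE 26.6) in control, 334 (SE 46.7) in the deletion and 210 (SE 29.7) in the knock-in. The log2 fold changes were 0.84 (SE 0.29, 95% interval 0.27 to 1.40, adjusted p = 0.156) in the deletion and 0.17 (SE 0.29, 95% interval -0.40 to 0.74, adjusted p = 0.950) in the knock-in, and neither passed. The difference between the altered genotypes was 0.67 (SE 0.29, 95% interval 0.11 to 1.23). Crabp2 lies at chr3:87948666-87953376, on the plus strand.

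Cyp26b1, which oxidises retinoic acid to inactive products, was the most variable of the 9. Its levels were 928 (SE 252) in control, 1226 (SE 333) in the deletion and 632 (SE 172) in the knock-in, so the spread of each mean was large. The log2 fold changes of 0.40 (SE 0.55, 95% interval -0.69 to 1.49, adjusted p = 0.932) and -0.55 (SE 0.56, 95% interval -1.64 to 0.53, adjusted p = 0.874) did not pass. Only a change of at least 3.83-fold in the deletion or 4.64-fold in the knock-in would have. A measured difference of 2-fold in either direction would not have passed for this enzyme. The gene lies on the minus strand at chr6:84571414-84593908. The other members of its family were hardly detected, with a deposited mean normalised count of 1.55 for Cyp26a1 and 0.118 for Cyp26c1, and neither had an adjusted p.

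Rarb encodes retinoic acid receptor beta, which is a classic target of retinoic acid itself and is known in striatal neurons. Its levels were 241 (SE 34.7) in control, 167 (SE 24.5) in the deletion and 175 (SE 25.5) in the knock-in. The altered genotypes had 69.5% and 72.7% of the control level, and they differed from each other by -0.06 (SE 0.30, 95% interval -0.65 to 0.52). The log2 fold changes of -0.52 (SE 0.30, 95% interval -1.10 to 0.06, adjusted p = 0.608) and -0.46 (SE 0.30, 95% interval -1.04 to 0.12, adjusted p = 0.798) did not pass. A call would have needed a change of 1.04 and 1.18.

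The promoter of Rarb is shown because it holds the element through which retinoic acid receptors are known to act on this gene. Such an element is a direct repeat of a half-site of 6 bases spaced by 5 others (DR5). Capitals mark the half-sites in the RefSeq sequence of build GRCm38.p6, minus strand, chr14:16575427-16575726, where the repeat spans -53 to -37 from the start of the transcript. The same repeat is shown in a part of the Cyp26a1 promoter, plus strand, chr19:37697756-37697812, for comparison, at -32 to -16 and in the opposite orientation.
Rarb: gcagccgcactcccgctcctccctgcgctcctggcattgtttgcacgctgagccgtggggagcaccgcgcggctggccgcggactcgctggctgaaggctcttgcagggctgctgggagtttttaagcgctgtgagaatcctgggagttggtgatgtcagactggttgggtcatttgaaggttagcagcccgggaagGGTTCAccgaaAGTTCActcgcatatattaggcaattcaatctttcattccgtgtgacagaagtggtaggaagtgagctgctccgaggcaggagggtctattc
Cyp26a1: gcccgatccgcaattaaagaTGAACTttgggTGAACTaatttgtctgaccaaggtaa
Searched on both strands, a DR5 repeat occurred in 32 of 32851 promoters of 300 bases (0.0974%). Among the 9 genes, 6 had promoters in the RefSeq table, 10 in all, and Rarb was the gene with a match. Aldh1a3, Rdh10 and Crabp2 were not in it. Of 67 promoters of 48 other retinoid genes, 1 matched, that of Cyp26a1. Repeats spaced by 2 (DR2) or 1 (DR1) and the single half-site AGGTCA, which can overlap them, had 0 matches among the 10 promoters, beside 0.268%, 0.222% and 16.3% of all promoters. A match describes letters only and says nothing of binding in this tissue. Rarb lies at chr14:16430839-16819156, on the minus strand.

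Per kb of merged exon, the order of levels in control ran from Aldh1a2 at 315 (SE 34.7) through Rdh10 at 235 (SE 24.9), Crabp1 at 219 (SE 39.1), Cyp26b1 at 173 (SE 47.2), Stra6 at 142 (SE 18.6) and Crabp2 at 141 (SE 20.1). Rarb at 45.7 (SE 6.59), Aldh1a3 at 33.4 (SE 6.57) and Aldh1a1 at 5.01 (SE 1.15) closed it. Neighbours from Rdh10 to Crabp2 lay within their SEs of each other, or nearly so, and so did Rarb and Aldh1a3. With the length of the longest transcript instead, Stra6 came to 270 and Crabp2 to 201, so their places in the middle of the order depend on the length used. In the deletion, Aldh1a3 at 5.12 (SE 1.15) had the lowest level of the 9, below Aldh1a1 at 10.8 (SE 2.29).

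**Figure D2:**
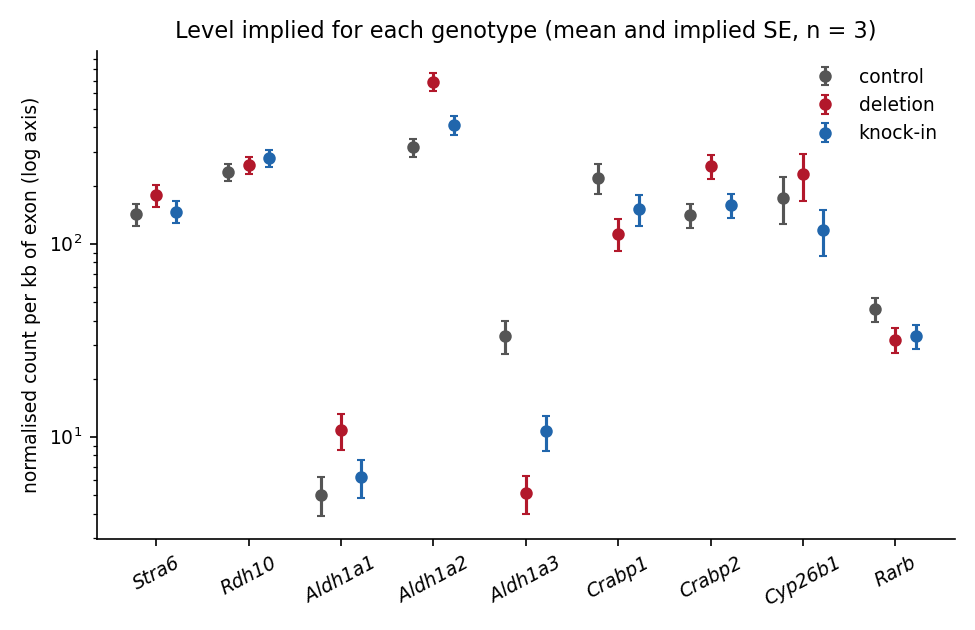
Mean normalised count per kb of merged exon (log axis) of the 9 genes in control (grey), deletion (red) and knock-in (blue). Points are means of 3 libraries as implied by the deposited table and bars are the implied SE; Aldh1a3 runs from 33.4 in control to 5.12 for the deletion and 10.6 for the knock-in.

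The spread between libraries of a genotype, as the fit's dispersion gives it, set what could be seen. Here the coefficient of variation is the root of that dispersion, 1 value shared by all genotypes and without counting noise. The largest were 47.0% for Cyp26b1, 34.2% for Aldh1a1, 33.1% for Aldh1a3 and 30.0% for Crabp1. The coefficient was 24.1% for Rarb, 23.6% for Crabp2, 22.4% for Stra6, 18.7% for Aldh1a2 and 18.1% for Rdh10. Among genes whose mean count was within 1.5-fold of their own, each of the 9 varied more than at least 85.4% of them, and Cyp26b1 more than 99.1%. Such a percentile had a median of 90.9 over the 9 genes, against 65.5 over the other retinoid genes, 98.1 over meningeal markers, 95.9 over lateral ganglionic markers and 99.8 over choroid plexus markers. The last of these had a median coefficient of variation of 103%. The part of these tissues in the spread of the 9 genes was not tested.

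**Figure D3:**
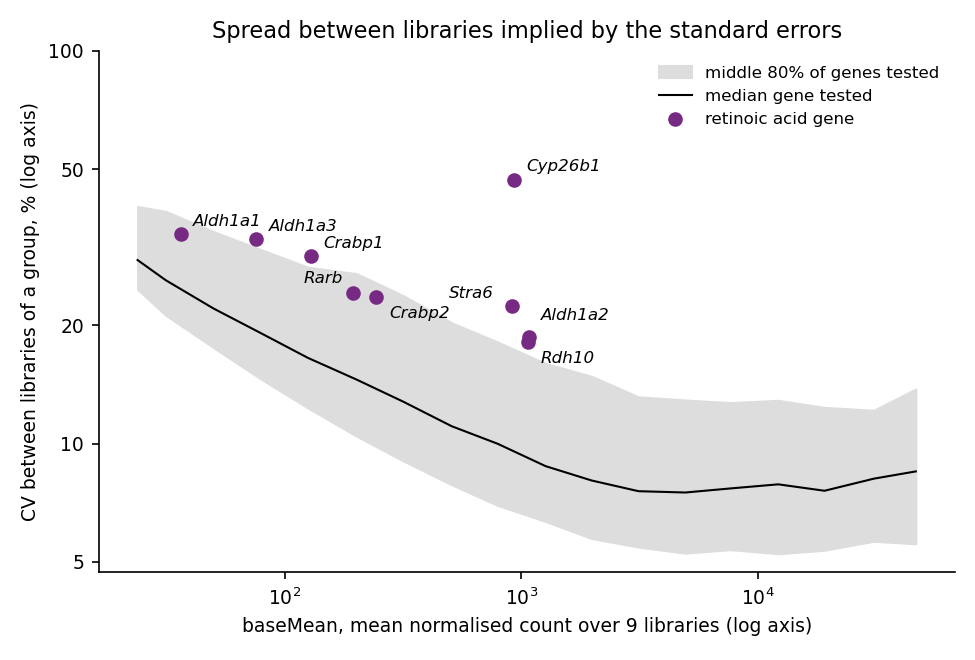
Coefficient of variation between libraries of a genotype (log axis) against the mean normalised count over 9 libraries (log axis), for the 9 retinoic acid genes (points). It is the root of the fit's dispersion, without counting noise. The line is the median and the band the middle 80% of all genes tested. All 9 points lie above the line, and Cyp26b1, at 47.0%, lies farthest above the band.

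Markers of the tissues that hold the 2 sources lay mostly on the same side of control as the source. The lists were chosen with earlier results of these data known, so their counts are a description. Over all genes tested, 0.475% were called lower and 0.501% higher in the deletion, and 0.137% were called in the knock-in. By the same Wald statistics, 9.5% (deletion) and 6.92% (knock-in) had an unadjusted p under 0.05. These shares stand beside the counts of every list below. All 13 lateral ganglionic eminence markers were below control in the deletion, with a median of -1.06 and a range of -3.06 to -0.45. Of these, 7 were called lower, among them the patterning factor Sp8 (-0.81, SE 0.17, adjusted p = 0.00114) and the homeobox genes Dlx5 (-1.06, SE 0.25), Dlx2 (-0.77, SE 0.18) and Dlx1 (-0.75, SE 0.20). Aldh1a3 was lower than 12 of the 13, the exception being Isl1 (-3.06, SE 1.36). The summed level of the list was 18428 in control, 9979 for the deletion and 12637 for the knock-in, and 0 of its markers had a mean count under 10. In the knock-in all 13 were again below control, with a median of -0.57 and a range of -2.03 to -0.10. There 0 passed by the authors' DESeq2 statistics and 6 had an unadjusted p under 0.05, and Aldh1a3 was lower than 12 of the 13.

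Some of these marker values rest on the statistic rather than the fold change deposited beside it. In the authors' deposited table the deletion values of Sp8 (-1.81), Dlx2 (-1.77) and Dlx5 (-1.58) are larger, and the knock-in values of Dlx1 (1.55) and Dlx2 (0.47) have the opposite sign. With the adjusted p deposited by the authors, knock-in markers called would number 5 of the lateral ganglionic list, 3 striatal, 2 meningeal (Col1a2 and Slc22a6), 1 endothelial (Vwf) and 1 cortical projection (Emx1), in place of 0. The deposited p of these genes is 1000-fold smaller than their statistic gives. For the 9 retinoic acid genes all 18 deposited fold changes equal statistic times SE, and 17 of the 18 p-values follow from the statistic, Aldh1a3 in the knock-in being the exception.

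Meningeal fibroblast markers lay on the other side. All 13 were above control in the deletion (median 1.05, range 0.54 to 1.38), and 6 were called higher, among them Slc22a6, which transports organic anions (1.38, SE 0.27), the forkhead factor Foxd1 (1.20, SE 0.29, with 1.30 in the authors' deposited table), Col1a2 (1.01, SE 0.26) and Fn1 (0.75, SE 0.20). Aldh1a2 lay inside this range, above 10 of the markers and below 3, and so did Crabp2, above 5 and below 8. The summed level was 38236 in control, 71051 for the deletion and 55725 for the knock-in, with 0 markers at a mean count under 10. In the knock-in 11 of 13 were above control (median 0.46, range -0.59 to 0.69), and 0 passed by the authors' DESeq2 statistics with 4 at an unadjusted p under 0.05. Aldh1a2 was above 4 of them there, and Crabp2 above 2. The part of these tissue differences in the values of Aldh1a2, Aldh1a3 and Crabp2 was not tested.

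**Figure D4:**
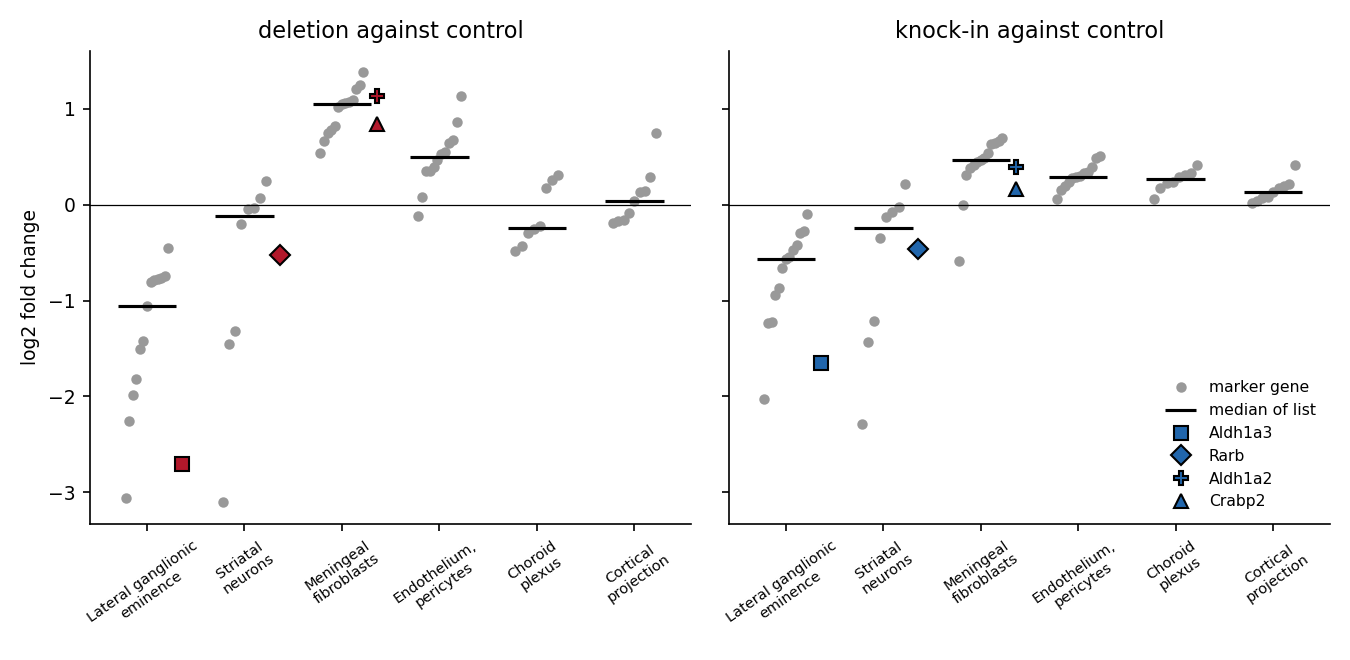
Log2 fold change against control in the deletion (left) and the knock-in (right) of marker genes (grey points) of 6 cell types, with the median of each list (bar) and the retinoic acid genes known from that tissue. Aldh1a3 (square) lies below 12 of 13 lateral ganglionic markers in both panels, and Aldh1a2 (cross) lies among the meningeal markers.

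Striatal markers, beside which Rarb belongs, were mixed. In the deletion 6 of 8 were below control (median -0.12), and Tac1, the substance P precursor gene, was called (-3.10, SE 0.80, adjusted p = 0.0203). In the knock-in 7 of 8 were below (median -0.24), 0 passed by the authors' DESeq2 statistics and 3 had an unadjusted p under 0.05. Rarb had 3 of the 8 below it in each comparison. Endothelial and pericyte markers were mostly higher in the deletion, 11 of 12 above control and 3 called, namely Vwf (1.13), Flt1 (0.65) and Vtn (0.86). In the knock-in 12 of 12 were above control (median 0.29), 0 passed by the authors' DESeq2 statistics and 2 had an unadjusted p under 0.05. Of the medial eminence and interneuron markers, Nkx2-1 had -4.04 (SE 1.34, adjusted p = 0.126) and Lhx8 -6.40 (SE 2.12, adjusted p = 0.127) in the deletion, farther below control than Aldh1a3 but without a call. Both were chosen after their values were seen, and their coefficients of variation were 113% and 176%. Over the 8 markers of that list the deletion median was -0.35, with 6 below control and 2 above. In the knock-in the median was -0.67, with 8 of 8 below. Choroid plexus markers, which include the retinol carrier gene Ttr, had medians of -0.24 and 0.26, with 0 called and 0 at an unadjusted p under 0.05 in either comparison by the same statistics. Cortical projection markers had summed levels of 124024 in control, 137784 for the deletion and 133871 for the knock-in, with 0 called, and unadjusted p under 0.05 for 2 for the deletion and 1 for the knock-in.

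The rest of the retinoid route was taken from a list of 61 further genes of synthesis, transport, receptors, cofactors and known targets. Of these, 56 were found and the others are not analysed here. In the deletion 39 were tested and 2 were called, both lower, beside the 0.976% of all genes, and the median was 0.09. Both are homeodomain genes known to respond to retinoic acid: Meis1 at -0.93 (SE 0.15, adjusted p = 9.79e-07) and Meis2 at -0.38 (SE 0.11, adjusted p = 0.0380). The authors' deposited table has -1.93 for Meis1. Whether called or not, 26 of the 39 were above control and 13 below, beside 9156 above and 9796 below over all genes tested. Of the 9 known targets tested among them, 7 were above control and 2, Meis1 and Meis2, were below. The split was another in the knock-in, with 20 of the list above control and 21 below. There 3 of the known targets were above and 7 below, beside 10819 above and 10403 below over all genes tested.

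Meis1 had levels of 579 in control, 305 for the deletion and 461 for the knock-in, and Meis2 had 13143, 10071 and 11276. Both stood lowest in the deletion. Besides Aldh1a7, those nearest to a call in the deletion were Tgm2, the tissue transglutaminase and a known target (0.76, SE 0.28, adjusted p = 0.201), and Fabp5, a fatty acid binding protein that also binds retinoic acid (0.19, SE 0.07, adjusted p = 0.202). In the knock-in 41 were tested, 0 passed by the authors' DESeq2 statistics and 6 had an unadjusted p under 0.05, 3 on each side. The nearest were the alcohol dehydrogenase gene Adh5 (0.20, SE 0.08, adjusted p = 0.592), Meis1 (-0.33, SE 0.14), Hic1 (0.62, SE 0.28), Rxrg (-2.16, SE 0.98) and Meis2 (-0.22, SE 0.11), the last with an adjusted p of 0.672.

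Receptors other than Rarb mostly had values near control. Rara had 0.01 (SE 0.14) in the deletion and -0.09 (SE 0.14) in the knock-in, and Rarg had 0.28 (SE 0.13) and 0.03 (SE 0.13). Of their partners, Rxra had 0.10 and 0.16 (SE 0.13 in both) and Rxrb had 0.13 in both (SE 0.08). Rxrg, known from striatal neurons, had levels of 402 in control, 78.3 for the deletion and 89.9 for the knock-in. Its log2 fold changes of -2.36 (SE 0.98, adjusted p = 0.330) and -2.16 (SE 0.98, adjusted p = 0.620) did not pass, at a coefficient of variation of 82.6%. Rarb and Rxrg thus both had their control mean highest, and neither was called.

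Carriers and storage genes were likewise without a call. Rbp4, the carrier of retinol in blood, had 1.44 (SE 0.53, adjusted p = 0.224) in the deletion and 0.07 (SE 0.56) in the knock-in, at a mean count of 26.2. Ttr, which travels with it and is made by the choroid plexus, had -0.26 and 0.22 (SE 1.5 in both) and a coefficient of variation of 127%. Dhrs3, which turns retinaldehyde back to retinol, had 0.18 (SE 0.19) and 0.01 (SE 0.19). Nr2f1 and Nr2f2, orphan receptors that respond to retinoic acid in other cells, had 0.10 and 0.03 in the deletion and -0.05 and -0.43 in the knock-in.

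Genes most like each source were found among 12967 genes by distance in the plane of both log2 fold changes. Both comparisons share the control libraries, so this likeness rests on 3 group means. Nearest to Aldh1a3 were Fgf15 at a distance of 0.48, Dlx6 at 0.84, Nkx2-3 at 0.97, Th at 0.99 and Nrsn2 at 1.22. Fgf15 had -2.48 (SE 0.41) in the deletion and -1.23 (SE 0.40) in the knock-in. Nearest to Aldh1a2 were Mrc1 at 0.07, Trabd2b, Inhba, Fcgr2b and Slc6a13 at 0.08 each. Mrc1 had 1.06 (SE 0.24) and 0.37 (SE 0.24), and Slc6a13, itself among the meningeal markers, had 1.05 (SE 0.28) and 0.38 (SE 0.28). Only named genes with a baseMean of at least 50 and an SE of at most 0.6 in both comparisons were searched. Genes with larger SEs, such as Isl1 (-3.06 in the deletion, -2.03 in the knock-in) and Rxrg (-2.36 and -2.16), were left out. The order of neighbours therefore holds within this filter only. Among the genes searched, the nearest to Aldh1a3 was farther from it than the fifth nearest was from Aldh1a2.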

How the data were processed

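RNA sequencing libraries from 9 embryonic cortices in 3 genotypes took 50 ng of total RNA each and mRNA capture, per the labels' protocols. Named without roles in the submitters' processing notes are STAR 2.7.9a, Bowtie2 2.4.4, cutadapt and the builds mm10 and mm9. How reads were counted was not given in the sources used. The deposited tables hold the authors' comparison of each altered genotype with control, with the columns DESeq2 gives. The authors' log2 fold changes and SEs are on the log2 scale, and the Wald statistic is the authors' score per gene. The deposited p-value columns are raw and adjusted. Level is given by the deposited signal baseMean, which averages normalised counts over 9 libraries.

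The deposited columns headed FPKM are scores of no known use: within a tolerance of 1e-09, all 235530 deletion and 242196 knock-in values equal baseMean times draws of R's normal generator (mean 1, SD 0.1, seed 42), and 0 do with the next seed. They were not used, so depth, spread and values per library could not be read. The deposited fold change differed from statistic times SE for 22 deletion and 25 knock-in genes. The deposited p differed from that of the statistic for 4 and 930 genes (relative tolerance 1e-06 for fold changes and 1e-04 for log10 p), of which 923 knock-in values were 1000-fold too small.

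Values here are therefore statistic times SE, its 2-sided normal p, and that p adjusted by Benjamini-Hochberg among genes for which an adjusted p was deposited (18952 and 21222). Intervals are 1.96 SE. Levels per genotype, dispersions and SEs were solved from baseMean, the fold changes and the SEs. The dispersions that the comparisons gave separately were set side by side for genes with a baseMean of at least 50 and a positive dispersion in both. They differed by under 1% for 16814 of these 16814 genes, which is how one fit over 9 libraries was recognised. Lengths and positions came from GENCODE M21 of mm10. Calculations ran in Python 3.11.15 (matplotlib 3.10.9, numpy 2.4.6, scipy 1.17.1, pandas 2.3.3), and the steps were tested on simulated data.

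The 9 genes, the retinoid and marker lists and the tests were chosen with earlier results of these data known. Named besides the 9 were retinoid genes past the threshold, the 5 with the largest statistic per comparison at a baseMean of at least 10, a fixed set of receptors and carriers (a gene of which is not reported here), up to 4 called markers per list, and the 5 genes nearest to Aldh1a3 and to Aldh1a2 (baseMean at least 50, SE at most 0.6). Isl1, Nkx2-1, Lhx8, the Y-linked genes and the genes named for a deposited call were named after their values were seen. Rarb, Crabp2 and Aldh1a2 were left out of the marker lists. Lists not described above had few calls: medial eminence and interneuron, thalamic, Cajal-Retzius and progenitor markers had 0 in both comparisons by DESeq2's statistics, with 4, 2, 1 and 2 at an unadjusted p under 0.05 in the deletion and 2, 0, 0 and 0 in the knock-in. By the authors' deposited adjusted p, Gad1 and Gad2 pass in the knock-in and Gbx2 in the deletion. Septal markers had 1 call, Zic1 (-0.77, and -1.77 in the authors' deposited table), in the deletion.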

Additional observations from a re-analysis of the deposited data

How the results depend on the processing

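The deposited log2 fold changes of the 9 genes equal those used here, and the other alternatives bear on calls alone. A call was lost for Aldh1a3 in the knock-in, with an adjusted p of 0.0896 when adjusted over every gene with a statistic. Called genes in the deletion numbered 185, against 308 at an adjusted p of 0.1, 75 at 0.01 and 115 when adjusted over every gene with a statistic. In the knock-in they numbered 29, against 58 at 0.1, 16 at 0.01 and 930 with the authors' deposited adjusted p. Of the 9 genes, 0 were called in the knock-in at 0.01 or when adjusted over every gene with a statistic. Other retinoid genes called in the deletion were 1 (Meis1) at 0.01, 1 when adjusted over every gene and 1 with a fold of at least 1.5, in place of 2. In the knock-in they were 3 with the authors' deposited values (Adh5, Hic1 and Meis1), in place of 0. With the longest transcript as length, 5 of the 9 control levels per kb moved by more than their SD between libraries. The other alternatives gave counts within 1.5 times those reported. Depth per library is unknown, so no limit from counting can be given. No paired analysis was possible because the tables hold no usable value per library, and leaving out each replicate was not run for the same reason.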
